A study of Mus musculus with 12 samples.

Results

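The ID genes and the genes of BMP-SMAD feedback were followed in mouse tumours that either had or had not acquired resistance to anti-PD-1 antibody. The group holds 10 genes out of 15493 tested: the 4 ID genes Id1, Id2, Id3 and Id4, the feedback inhibitors Smad6, Smad7 and Bambi, the ligands Bmp2 and Bmp4, and the antagonist Grem1. The group was chosen by the higher level of Id3 in resistant tumours. For these 10 genes differences between the lines are therefore given as a description without a test. Differences between antibodies, on which the choice was not made, were tested. They use the same arrays as the line differences, and earlier results of these data were known, so these tests are not fully independent of the choice. Genes outside the group were tested for line and antibody differences. The tumours were grown from 344SQ, a mouse lung adenocarcinoma line, placed under the skin of the flank of female 129sv/ev mice. The 4 groups were parental cells with control IgG, parental cells with anti-PD-1, resistant cells with control IgG and resistant cells with anti-PD-1, with 5 mice each. Either antibody was given at 10 mg/kg on days 4 and 7, tumours were taken on day 11, and RNA of the whole tumour was hybridized to Affymetrix arrays, 3 per group and 12 in all. Which mice stand behind which array, and whether the resistant line is 1 clone or a population, is not stated in the labels, so p-values measure the spread between these arrays, which may be technical. Tumour cells, vessels, fibroblasts and immune cells all contribute to such RNA, and fewer cells of a type cannot be told apart from less RNA per cell.

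Bone morphogenetic proteins (BMPs) are secreted ligands that bind paired serine/threonine kinase receptors, which phosphorylate SMAD1, SMAD5 and SMAD9. These join SMAD4 in the nucleus and switch on the ID genes, whose products lack a DNA-binding region and hold basic helix-loop-helix (bHLH) factors away from DNA. The same signal induces its own brakes: SMAD6 and SMAD7, which block the receptors and SMADs, and BAMBI, a receptor decoy without a kinase. Gremlin 1, made by Grem1, binds BMP2 and BMP4 outside the cell and keeps them from the receptors. ID1 and ID3 are well known in the endothelium of growing vessels as well as in tumour cells.

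SMAD complexes recognise GTCT, its palindrome GTCTAGAC and the GC-rich box GGCGCC, so the sequences at the starts of 3 genes are shown here: Id3 and Smad6, whose means were higher in resistant tumours under both antibodies, and Bmp4, whose means were lower. Promoter windows from RefSeq on the build GRCm38.p6 were examined for 6 of the 10 genes, and each runs from 250 bases before the annotated start to 4 bases after it. Windows of Id1, Smad7, Bambi and Bmp2 were not examined, so nothing is said of motifs at these genes. Capitals mark the motifs on either strand, with GTCT read as AGAC on the opposite strand, and each sequence is given 5′ to 3′ on the strand of its gene.
Id3, chr4:136143572-136143825, plus strand: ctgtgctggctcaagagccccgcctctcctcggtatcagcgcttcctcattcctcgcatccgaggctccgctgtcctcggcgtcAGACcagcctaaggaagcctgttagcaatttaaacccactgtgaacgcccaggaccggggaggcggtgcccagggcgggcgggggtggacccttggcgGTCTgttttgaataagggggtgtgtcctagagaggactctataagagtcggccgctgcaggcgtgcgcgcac
Smad6, chr9:64022056-64022309, minus strand: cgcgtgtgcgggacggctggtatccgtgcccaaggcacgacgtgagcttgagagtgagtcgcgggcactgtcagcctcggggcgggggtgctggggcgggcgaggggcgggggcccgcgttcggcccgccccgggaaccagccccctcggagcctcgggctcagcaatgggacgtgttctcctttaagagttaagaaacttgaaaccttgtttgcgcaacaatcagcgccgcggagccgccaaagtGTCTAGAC
Bmp4, chr14:46390666-46390919, minus strand: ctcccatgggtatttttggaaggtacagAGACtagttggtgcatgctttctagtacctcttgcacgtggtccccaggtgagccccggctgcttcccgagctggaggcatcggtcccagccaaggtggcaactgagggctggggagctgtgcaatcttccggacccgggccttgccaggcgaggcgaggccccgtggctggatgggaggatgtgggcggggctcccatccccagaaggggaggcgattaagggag
The Id3 window held 2 GTCT boxes, which began 166 and 68 bases before the start, and neither of the longer motifs. The Smad6 window ended on the palindrome, which began 4 bases before the start and is made of 2 adjoining boxes on opposite strands. Bmp4 had 1 box, 222 bases before the start. Of 32851 promoter windows of the same length, 56 (0.17%) held GTCTAGAC, 3180 (9.68%) held GGCGCC and 83.3% held GTCT, so the short box is common. GGCGCC was found in the windows of Id2 (chromosome 12), 231 bases before the start, Id4 (chromosome 13), 148 bases before it, and Grem1 (chromosome 2), 78 bases before it. A match describes the letters in these windows and was not tested for binding.

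All values below are deposited log2 expression levels, on which a difference of 1 is a doubling, and they ran from 1.62 to 13.88 over the table. The deposited values give no read or molecule depth, and the precision rests on the number of arrays. Correlations between arrays lay between 0.959 and 0.997. Replicate 1 of the parental IgG group and replicate 3 of the parental anti-PD-1 group stood apart, with the lowest array weights in limma (0.47 and 0.23). Results that rest on them are given with and without them. Resistant arrays were uneven too: IgG replicate 3 had a weight of 0.54. Mean muscle markers were 6.30 on resistant anti-PD-1 replicate 1, beside 6.73 on parental IgG replicate 1. Mean adipocyte markers were highest on resistant IgG replicate 2, at 7.57. The epithelial markers Cdh1, Krt8 and Krt18 were high on all 12 arrays, at 11.46 or above, while the lung lineage factor gene Nkx2-1 lay between 3.78 and 4.16, close to the filter of 3.32. Of the 12 markers in their list, 10 were lower in resistant tumours in each arm and 2 higher. By limma 3 were called lower in each arm, and 1 higher under anti-PD-1. Ocln had means of 7.11 and 6.87 in the parental groups and 4.14 and 4.09 in the resistant groups, with IgG first. Esrp1 lay below the filter on the resistant IgG arrays (2.61, 2.93 and 3.12). RNA quality moved with the line: the excess of 3′ over 5′ signal of the Gapdh control probe sets was 0.14 to 0.38 on parental arrays and -0.03 to 0.09 on resistant arrays, and that of actin was 0.58 to 0.85 and 0.33 to 0.55. The 10 genes were covered by 15 probe sets, of which 13 passed the filter. The 2 that did not were both for Id4. The remaining Id4 probe set and those of the 9 other genes exceeded the filter on all 12 arrays.

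**Figure D1:**
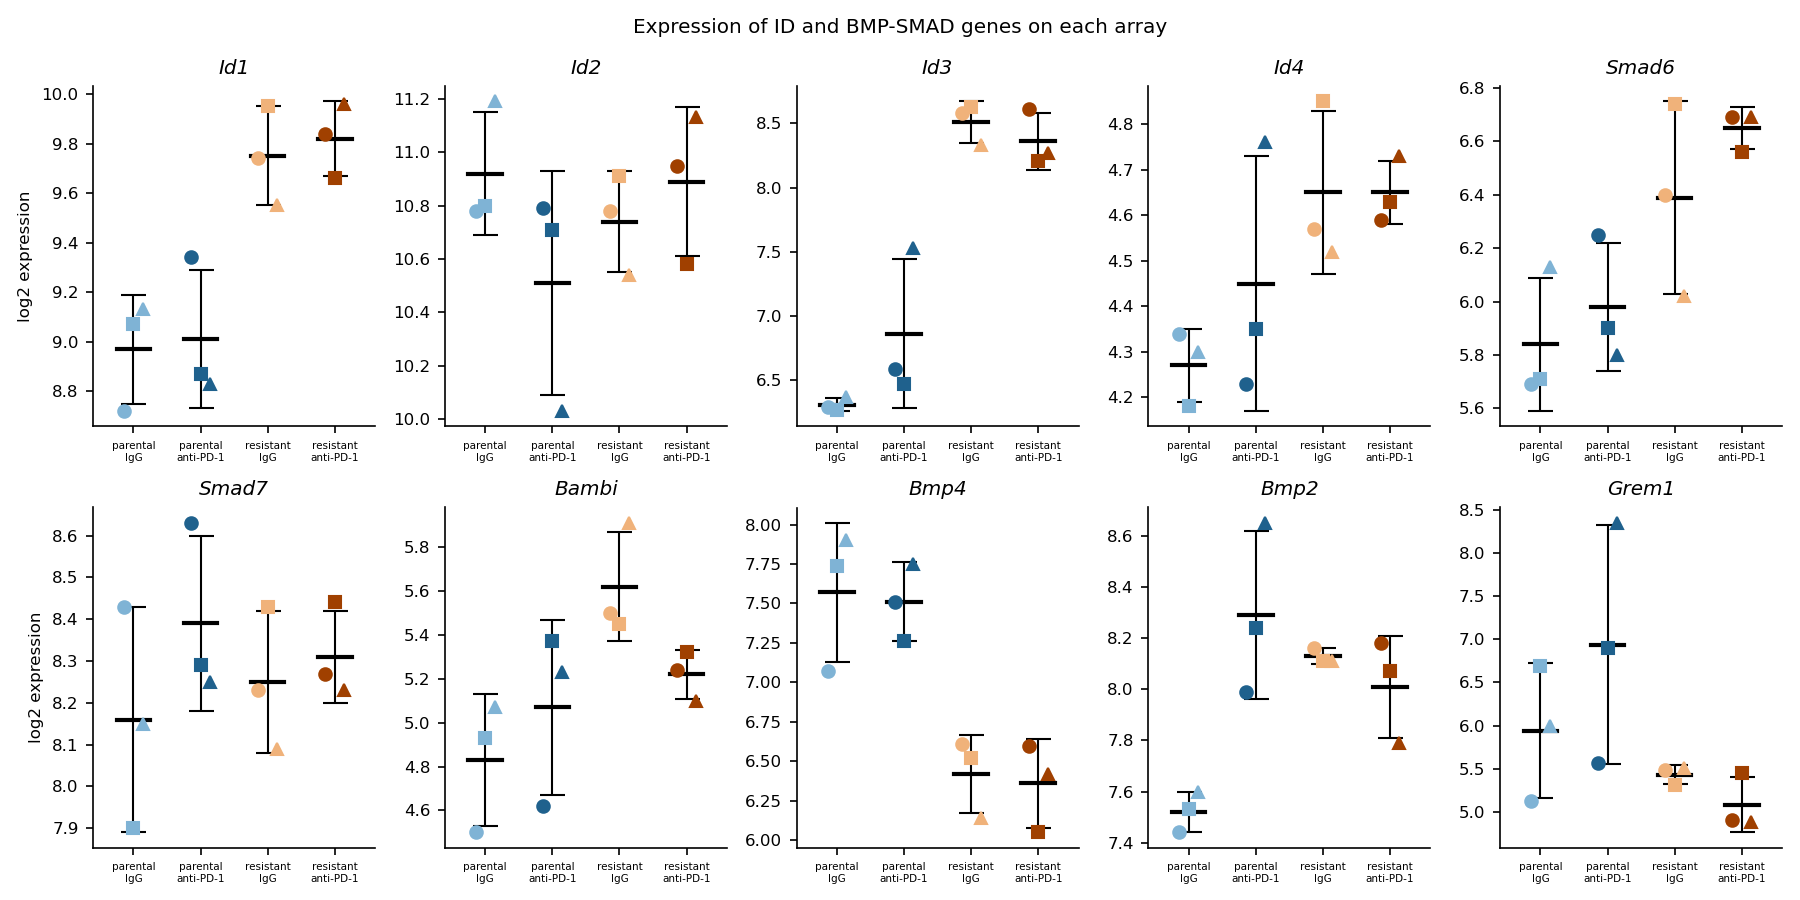
Log2 expression of the 10 genes on each array (vertical axes differ between panels) for the 4 groups on the horizontal axis; circles, squares and triangles are replicates 1, 2 and 3, the wide bar is the mean and the thin bars 1 SD (n = 3). Id3 and Id1 lay higher on all 6 resistant arrays than on any parental array and Bmp4 lay lower, while for each of the other genes the lines overlapped.

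Id3 (chromosome 4), the gene on which the group was chosen, was at 6.29, 6.27 and 6.37 in parental tumours with IgG and at 6.59, 6.47 and 7.53 with anti-PD-1. In resistant tumours it was at 8.58, 8.63 and 8.33 with IgG and at 8.61, 8.21 and 8.27 with anti-PD-1. The lowest resistant array thus lay above the highest parental array, which was replicate 3 of the anti-PD-1 group. The line difference was 2.20 (SE 0.23, 4.61-fold) under IgG and 1.50 (SE 0.23, 2.83-fold) under anti-PD-1. Without both arrays that stood apart these differences were 2.19 and 1.83. In order of their means, the groups ran from parental IgG (6.31 ± 0.05, SD, n = 3) and parental anti-PD-1 (6.86 ± 0.58) to resistant anti-PD-1 (8.36 ± 0.22) and resistant IgG (8.51 ± 0.16). The ranges of the 2 resistant groups overlapped. The 2 parental groups did not, but their means differed by 0.55, less than the SD of 0.58 in the anti-PD-1 group.

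Id1 (chromosome 2), the close relative of Id3 and a widely used readout of BMP signalling, had a similar order at a smaller distance. Its levels were 8.72, 9.07 and 9.13 in parental tumours with IgG and 9.34, 8.87 and 8.83 with anti-PD-1. In resistant tumours they were 9.74, 9.95 and 9.55 with IgG and 9.84, 9.66 and 9.96 with anti-PD-1. The lines did not overlap, and the differences of 0.77 (SE 0.16) under IgG and 0.81 (SE 0.16) under anti-PD-1 were close to each other. They were 0.65 and 0.72 without both arrays that stood apart.

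Id4 lay at low levels, and the lines overlapped at the brightest Id2 probe set. Id4 is best known from neural and mammary progenitor cells. Its 1 probe set above the filter read 4.34, 4.18 and 4.30 in parental tumours with IgG, 4.23, 4.35 and 4.76 with anti-PD-1, 4.57, 4.85 and 4.52 in resistant tumours with IgG and 4.59, 4.63 and 4.73 with anti-PD-1. The single parental array within the resistant range was replicate 3 of the anti-PD-1 group, and the line differences were 0.37 (SE 0.13) and 0.20 (SE 0.13). The other Id4 probe sets were above the filter on 2 and 0 arrays. The Id2 gene, whose product is known for its part in innate lymphoid and NK cell development, was read by 3 probe sets. The brightest gave 10.78, 10.80 and 11.19 in parental tumours with IgG and 10.79, 10.71 and 10.03 with anti-PD-1. In resistant tumours it gave 10.78, 10.91 and 10.54 with IgG and 10.95, 10.58 and 11.13 with anti-PD-1. At this probe set the ranges overlapped throughout, with line differences of -0.18 and 0.38. Over the 3 Id2 probe sets the difference ran from -0.40 to -0.08 under IgG and from 0.14 to 0.65 under anti-PD-1. The probe set at 0.65 (SE 0.20) had no overlap between the lines under anti-PD-1. It read 9.73, 9.41 and 9.30 in parental tumours and 10.09, 9.78 and 10.53 in resistant ones.

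Among the feedback inhibitors, Smad6 and Bambi had higher means in resistant tumours in both antibody arms, and for Smad7 the lines overlapped. Smad6 (chromosome 9), which acts mainly on the BMP branch, was at 5.69, 5.71 and 6.13 in parental tumours with IgG and at 6.25, 5.90 and 5.80 with anti-PD-1. In resistant tumours it was at 6.40, 6.74 and 6.02 with IgG and at 6.69, 6.56 and 6.69 with anti-PD-1. Replicate 3 of the resistant IgG group fell within the parental range, and the line difference was 0.54 (SE 0.18) under IgG and 0.66 (SE 0.18) under anti-PD-1. Smad7, which brakes the TGF-beta branch as well, was at 8.43, 7.90 and 8.15, then 8.63, 8.29 and 8.25 in the 2 parental groups and at 8.23, 8.43 and 8.09, then 8.27, 8.44 and 8.23 in the resistant groups, with IgG first. Its ranges overlapped in each arm, and the line differences were 0.09 and -0.08 (SE 0.15 each), or 0.11 and 0.17 (SE 0.08 each) at its second probe set. Bambi was at 4.50, 4.93 and 5.07 in parental tumours with IgG and at 4.62, 5.37 and 5.23 with anti-PD-1. In resistant tumours it was at 5.50, 5.45 and 5.91 with IgG and at 5.24, 5.32 and 5.10 with anti-PD-1. The lines were apart under IgG, by 0.79 (SE 0.21), and overlapped under anti-PD-1, where the difference was 0.15 (SE 0.21).

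Of the 2 ligands and the antagonist, Bmp4 and Grem1 had lower means in resistant tumours in both arms. Bmp2 had a higher mean in resistant tumours under IgG and a lower one under anti-PD-1. Bmp4 (chromosome 14) was at 7.07, 7.74 and 7.90 in parental tumours with IgG and at 7.51, 7.26 and 7.75 with anti-PD-1, against 6.61, 6.52 and 6.14 and then 6.60, 6.05 and 6.42 in resistant tumours. Every resistant array lay below every parental array, and the difference was -1.15 (SE 0.23) in each arm, or -1.40 under IgG and -1.03 under anti-PD-1 without both arrays that stood apart. Bmp2 (chromosome 2) was at 7.44, 7.53 and 7.60 in parental tumours with IgG and at 7.99, 8.24 and 8.65 with anti-PD-1. In resistant tumours it was at 8.16, 8.11 and 8.11 with IgG and at 8.18, 8.07 and 7.79 with anti-PD-1. Parental tumours with IgG were thus the low group, 0.60 (SE 0.15) below resistant tumours with IgG, while under anti-PD-1 the resistant tumours differed by -0.28 (SE 0.15) and the ranges overlapped. Grem1, a product of fibroblasts in many tumours, was at 5.13, 6.69 and 6.0 in parental tumours with IgG and at 5.57, 6.90 and 8.35 with anti-PD-1. In resistant tumours it was at 5.48, 5.31 and 5.51 with IgG and at 4.91, 5.45 and 4.88 with anti-PD-1. Its parental arrays were the most scattered of the 10 genes, with both extremes on the arrays that stood apart, and the line differences of -0.51 and -1.86 (SE 0.57 each) were -0.91 and -1.16 without those arrays.

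**Figure D2:**
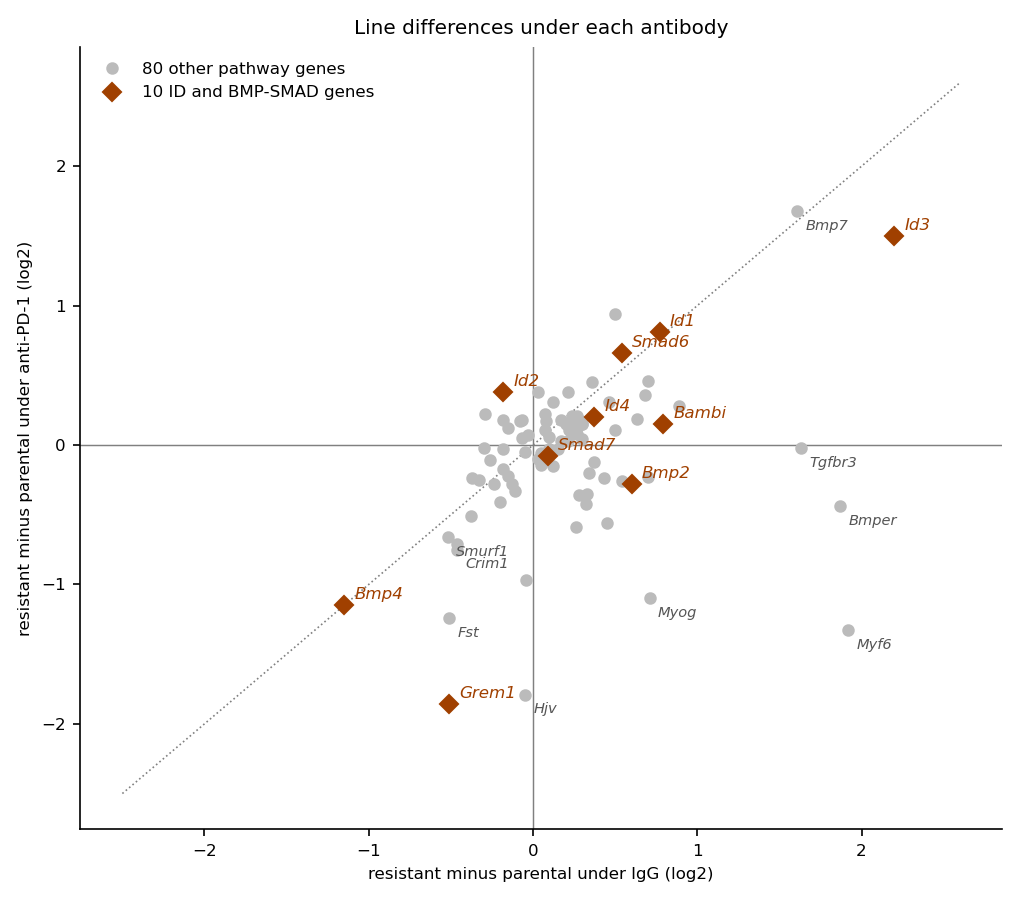
Resistant minus parental difference (log2) under IgG on the horizontal axis against the same difference under anti-PD-1 on the vertical axis, for the 10 genes (diamonds) and 80 other pathway genes (grey points, some named); the dotted line marks equal differences. Id3 (2.20 and 1.50), Id1 and Bmp7 lie at upper right, Bmp4 (-1.15 in both) at lower left, and Grem1 is low mainly under anti-PD-1.

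Over the 6 resistant and 6 parental arrays 3 of the 10 genes had no overlap, Id3 (6.59 ± 0.48 against 8.44 ± 0.19, SD, n = 6), Id1 and Bmp4, as did 17.8% of all genes. This count belongs to the comparison on which the group was chosen and is given for description. The median difference of all genes was 0.07 under either antibody.

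Anti-PD-1 was compared with IgG within the parental tumours, and Bmp2 was the member that changed. It rose by 0.77 (SE 0.15, 95% interval 0.44 to 1.10, 1.71-fold; limma, adjusted p = 0.0309), from 7.52 ± 0.08 to 8.29 ± 0.33 (SD, n = 3), with every anti-PD-1 array above every IgG array. That is 1 of 10 members, where 3.50% of all genes passed, and 2 members had an unadjusted p below 0.05. The call was kept in 13 of 21 alternative settings, with differences from 0.55 to 0.92 and adjusted p from 0.0175 to 0.164. Without both arrays that stood apart the difference was 0.55 (limma, adjusted p = 0.083), and a fit to the parental arrays alone gave an adjusted p of 0.164. The call was also lost without any 1 of parental IgG replicates 1, 2 and 3 (limma, adjusted p = 0.0678, 0.0788 and 0.0926), parental anti-PD-1 replicate 3 (0.0594, at a difference of 0.59), resistant IgG replicate 1 (0.0528) or resistant anti-PD-1 replicate 2 (0.0507).

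**Figure D3:**
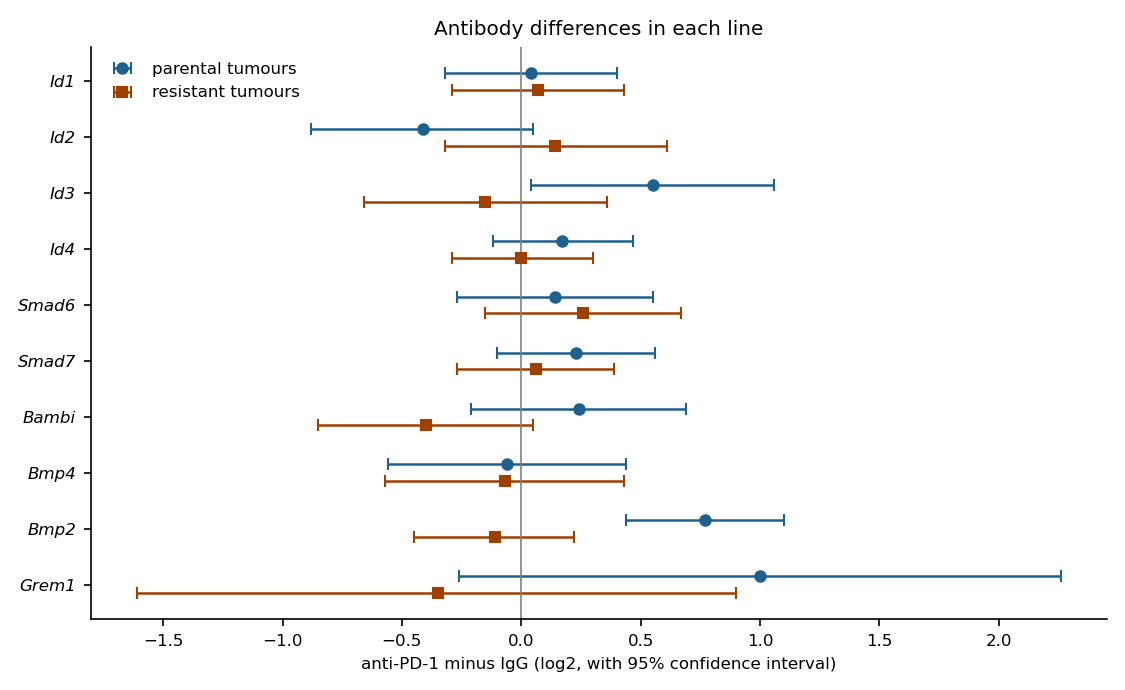
Difference between anti-PD-1 and IgG (log2, horizontal axis) for each of the 10 genes in parental tumours (circles) and resistant tumours (squares), with 95% confidence intervals from limma over 12 arrays. The parental interval of Bmp2 runs from 0.44 to 1.10, and the resistant intervals all include 0.

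Id3 had no parental anti-PD-1 array within the IgG range, but its difference of 0.55 (SE 0.23, 95% interval 0.04 to 1.06) did not pass (limma, adjusted p = 0.194). Replicate 3 carried most of that difference, which was 0.22 without it and 0.21 without both arrays that stood apart. Across 21 alternatives its adjusted p in limma lay between 0.0975 and 0.546, and the interval leaves room for differences from near 0 to about a doubling. Grem1 had a difference of 1.00 (SE 0.57, adjusted p = 0.336), which was -0.11 without the same arrays. The brightest Id2 probe set differed by -0.41 (SE 0.21, adjusted p = 0.283). At its second probe set all anti-PD-1 arrays (9.73, 9.41 and 9.30) lay below the IgG arrays (9.87, 9.85 and 10.33), a difference of -0.54 (SE 0.20, adjusted p = 0.164 over all probe sets). The differences of the 6 other members lay between -0.06 for Bmp4 and 0.24 for Bambi, with adjusted p from 0.400 to 0.918. The 10 members had a median of 0.20, beside -0.01 over all genes.

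In resistant tumours 0 of the 10 members passed between anti-PD-1 and IgG in limma, and 0 had an unadjusted p below 0.05. Over all genes 0% passed, with 738 at an unadjusted p below 0.05. Bambi came nearest: its 3 anti-PD-1 arrays lay below its 3 IgG arrays, by -0.40 (SE 0.21, 95% interval -0.85 to 0.05, adjusted p = 0.896 in limma). Id3 differed by -0.15 (95% interval -0.66 to 0.36), Id1 by 0.07 (-0.29 to 0.43) and Bmp2 by -0.11 (-0.45 to 0.22). These intervals do not show that the levels were equal.

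The interaction, which tests whether the antibody difference itself differs between the lines, passed for 0 of 10 members in limma, with 1 at an unadjusted p below 0.05. It passed for 0% of all genes, and 2713 had an unadjusted p below 0.05. That 1 member was Bmp2, whose antibody difference was 0.88 smaller in resistant tumours (-0.88, SE 0.21, adjusted p = 0.136). Over 20 alternatives its adjusted p in limma lay between 0.0499 and 0.292, and it passed in 1 of them, without parental anti-PD-1 replicate 1 (-1.03). Bambi (-0.64, adjusted p = 0.286), Id3 (-0.70, adjusted p = 0.291), Id2 (0.56, adjusted p = 0.352) and Grem1 (-1.35, adjusted p = 0.398) followed. The higher Bmp2 of parental tumours after anti-PD-1 is thus not shown to differ from its course in resistant tumours.

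Genes of the same pathway that are not members gave 80 tested genes in 8 lists. In parental tumours 1 of them passed between anti-PD-1 and IgG and it was higher: Myog, a muscle bHLH factor gene of the kind that ID proteins restrain, at 4.67, 4.85 and 5.11 with IgG and 6.54, 7.11 and 7.40 with anti-PD-1. Its groups did not overlap, and it rose by 2.14 (SE 0.38, limma, adjusted p = 0.024), a call kept in 15 of 21 alternatives. It was lost without both arrays that stood apart, with only the groups compared, and without any 1 of parental IgG replicates 1, 2 and 3 or parental anti-PD-1 replicate 3. Myod1, another muscle bHLH factor gene, differed by 0.55 (adjusted p = 0.0628), and the list of 12 bHLH genes had a median of 0.47. The mean level of 8 skeletal muscle markers ranged from 6.73 to 10.81 in parental tumours with IgG and from 9.69 to 11.51 with anti-PD-1. The part of muscle in the bHLH values was not tested. Among 13 extracellular modulators 0 passed, and 4 had an unadjusted p below 0.05 in limma: Bmper, which binds BMPs in the matrix around vessels, at 1.63 (adjusted p = 0.0591), the antagonist gene Nbl1 at 0.37 (0.0815), Crim1 at 0.37 (0.13) and the follistatin gene Fst at 0.81 (0.147). In resistant tumours 0 of the 80 passed and 1 had an unadjusted p below 0.05 (Acvrl1, -0.29), and for the interaction 0 passed and 16 had one.

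Between the lines, 8 of the 80 genes passed under IgG (10.0%, beside 16.2% of all genes) and 16 under anti-PD-1 (20.0%, beside 33.5%). Among 8 other ligands 1 passed in each arm, Bmp7, a BMP of kidney, bone and epithelia. It was at 5.77, 5.29 and 5.56 in parental tumours with IgG, 5.55, 5.13 and 5.52 with anti-PD-1, 7.34, 7.22 and 6.90 in resistant tumours with IgG and 7.16, 7.27 and 6.82 with anti-PD-1. No resistant array overlapped a parental one, and Bmp7 was higher by 1.61 under IgG (SE 0.17, limma, adjusted p = 0.000323) and by 1.68 under anti-PD-1 (SE 0.17, adjusted p = 0.000126). Both calls were kept in all 21 alternatives. Its direction was opposite to that of Bmp4 in the same tumours.

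Of 12 receptors and coreceptors 0 passed under IgG, where 2 had an unadjusted p below 0.05 in limma. Under anti-PD-1 1 passed, the type I receptor gene Bmpr1a at 0.38 (SE 0.08, adjusted p = 0.00407), a call lost when all probe sets were averaged. Of the 3 SMAD genes of the BMP branch that were tested, Smad1, Smad4 and Smad5, 0 passed in either arm in limma, with 1 (Smad1, 0.30, adjusted p = 0.0653) and 0 at an unadjusted p below 0.05.

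Of 13 extracellular modulators, 3 were higher and 1 lower under IgG: Nbl1 by 0.70 (adjusted p = 0.00225), Bmper by 1.87 (0.0137), the chordin-like gene Chrdl1 by 0.89 (0.0322), and Crim1, whose product tethers BMPs at the cell surface, by -0.46 (0.036). Under anti-PD-1, 2 were higher (Nbl1 by 0.46, adjusted p = 0.00789, and Dand5 by 0.45, 0.0309) and 2 lower (Crim1 by -0.75, 0.00151, and Fst by -1.24, 0.0092). Nbl1 kept its call in all 21 alternatives in both arms, and so did Crim1 under anti-PD-1. Under IgG, Crim1 kept its call in 14 of 21, and lost it without both arrays that stood apart and without any 1 of the parental IgG arrays or of resistant IgG replicates 1 and 2. Chrdl1 lay at low levels, with 3.47, 3.64 and 3.97 in parental and 4.25, 5.27 and 4.23 in resistant tumours with IgG. It kept its call in 15 of the 20 in which it was tested. Chrdl1 lost it without both arrays, parental IgG replicate 1 or 2, or resistant IgG replicate 2. The absence of this last array also ended the call of Bmper. Under anti-PD-1, Dand5 kept its call in 15 of 20, and lost it without replicate 1 or 2 of the parental or replicate 1 or 3 of the resistant anti-PD-1 arrays. Fst lost its call with only the groups compared.

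Smurf1, which encodes a ubiquitin ligase that marks BMP SMADs and receptors for destruction, was the 1 gene of 9 intracellular regulators called under both antibodies. It was at 7.25, 7.14 and 7.05 in parental tumours with IgG and 6.56, 6.70 and 6.63 in resistant ones, and at 7.49, 7.35 and 7.37 against 6.64, 6.79 and 6.81 with anti-PD-1. It was lower by 0.52 under IgG (-0.52, SE 0.08, limma, adjusted p = 0.00275) and by 0.66 under anti-PD-1 (-0.66, SE 0.08, adjusted p = 0.000322), in all 21 alternatives of each. Tob2 (-0.41, adjusted p = 0.0165) and Stub1 (-0.28, 0.0235) were lower under anti-PD-1. Tob2 kept its call in 18 of 21 alternatives, and lost it without resistant anti-PD-1 replicate 2. Stub1 kept its call in 13 of 21, and lost it without both arrays that stood apart, parental anti-PD-1 replicate 1 or 3, or any 1 of the resistant anti-PD-1 arrays. Median centring ended both calls, as did fitting only the groups compared. Of 10 further BMP-SMAD targets, Hey1, a vascular target shared with Notch, was higher under IgG by 0.68 (SE 0.16, adjusted p = 0.0166) and Tbx3 lower under anti-PD-1 by 0.71 (-0.71, SE 0.18, adjusted p = 0.0102). Hey1 kept its call in 17 of 21, and lost it without parental IgG replicate 2 or 3 or resistant IgG replicate 1 or 2. Tbx3 kept its call in all 20 in which it was tested, at -0.86 to -0.2. Of 12 bHLH partners 0 passed under IgG, with 4 at an unadjusted p below 0.05 in limma, and Myog was lower under anti-PD-1 (-1.10, adjusted p = 0.0437), a call kept in 10 of 21 alternatives. It was lost without both arrays that stood apart and without any 1 of the parental IgG arrays, parental anti-PD-1 replicates 2 and 3, resistant IgG replicate 3 and resistant anti-PD-1 replicate 1.

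In the TGF-beta arm of 13 genes, Tgfbr3, the betaglycan coreceptor gene, was higher under IgG by 1.63 (SE 0.45, adjusted p = 0.0319). Its call was kept in 16 of 21 alternatives, at 0.96 to 1.89, and lost without parental IgG replicate 1 or 3 or any 1 of the resistant IgG arrays. Under anti-PD-1 the ligand gene Tgfb2 was higher by 0.94 (SE 0.23, adjusted p = 0.00918) and Smad2 by 0.38 (adjusted p = 0.0101), while Smad3 (-0.51, adjusted p = 0.00971), the matrix target Tgfbi (-0.97, 0.0228) and Tgfbr2 (-0.28, 0.0275) were lower. Averaging all probe sets ended the calls of Smad2, Smad3 and Tgfbr2. For Smad3 it gave a difference of 0.15, of opposite sign, so the Smad3 probe sets disagreed. Tgfb2 kept its call in all 21 alternatives. Tgfbi kept its call in 15 of 21 and Tgfbr2 in 14. Both lost it without replicate 2 or 3 of the parental or of the resistant anti-PD-1 arrays, and Tgfbi also without both arrays that stood apart. Over the 12 arrays, 7 of the 80 genes had no overlap between the lines, beside 17.8% of all genes: Bmp7 and Smad2 higher, and Crim1, Smad3, Smurf1, Tgfbr2 and Tob2 lower.

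Markers of vessels and stroma moved with several of these values. The mean level of 18 endothelial markers ranged from 5.61 to 6.06 in parental tumours with IgG, from 6.21 to 7.24 with anti-PD-1, from 6.50 to 7.03 in resistant tumours with IgG and from 6.17 to 6.54 with anti-PD-1. In parental tumours all 18 were positive between anti-PD-1 and IgG, with 14 at an unadjusted p below 0.05 and 0 called by limma, and in resistant tumours all 18 were negative. Bmp2 was likewise lowest in parental tumours with IgG. The fibroblast list of 12 genes ran from 8.11 to 9.01, 8.64 to 10.11, 9.21 to 9.73 and 8.85 to 9.14 in the same order of groups, and the pericyte list of 11 genes from 6.46 to 6.66, 6.51 to 7.40, 6.90 to 7.34 and 6.34 to 6.71. Replicate 3 of the parental anti-PD-1 group was the highest array of all 3 lists, and the highest parental array for Id3 (7.53), Bmp2 (8.65) and Grem1 (8.35). The part of these cells in the values of the 10 genes was not tested.

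Between the lines, the endothelial markers had the sign of Id3 under IgG and mostly the opposite sign under anti-PD-1. Under IgG 17 of 18 were higher in resistant tumours, 5 of them called by limma (27.8%, beside 16.2% of all genes). The median difference of the list was 0.72, and Id3 was 2.20 higher. Under anti-PD-1 the endothelial list lay between 6.21 and 7.24 in parental and between 6.17 and 6.54 in resistant tumours. In this arm 15 of 18 genes were lower in resistant tumours, 1 of them called (5.56%, beside 33.5% of all genes). The median difference was -0.29, and Id3 was 1.50 higher in the same arm. The defining endothelial genes Pecam1 and Cdh5 were present on every array, at 4.97 or above and 4.95 or above. The 12 epithelial markers had a mean level of 8.21 to 9.20 on the 6 parental arrays and of 8.03 to 8.14 on the 6 resistant arrays, and the 11 T and NK cell markers lay between 4.19 and 5.60 and between 4.10 and 4.58. Markers were kept only where they exceeded the filter on at least 3 arrays, so none could lie below it on all 12. Within a group, 1 epithelial marker lay below the filter on all arrays of resistant tumours with IgG. Of the T and NK cell markers, 1 did so in each resistant group.

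**Figure D4:**
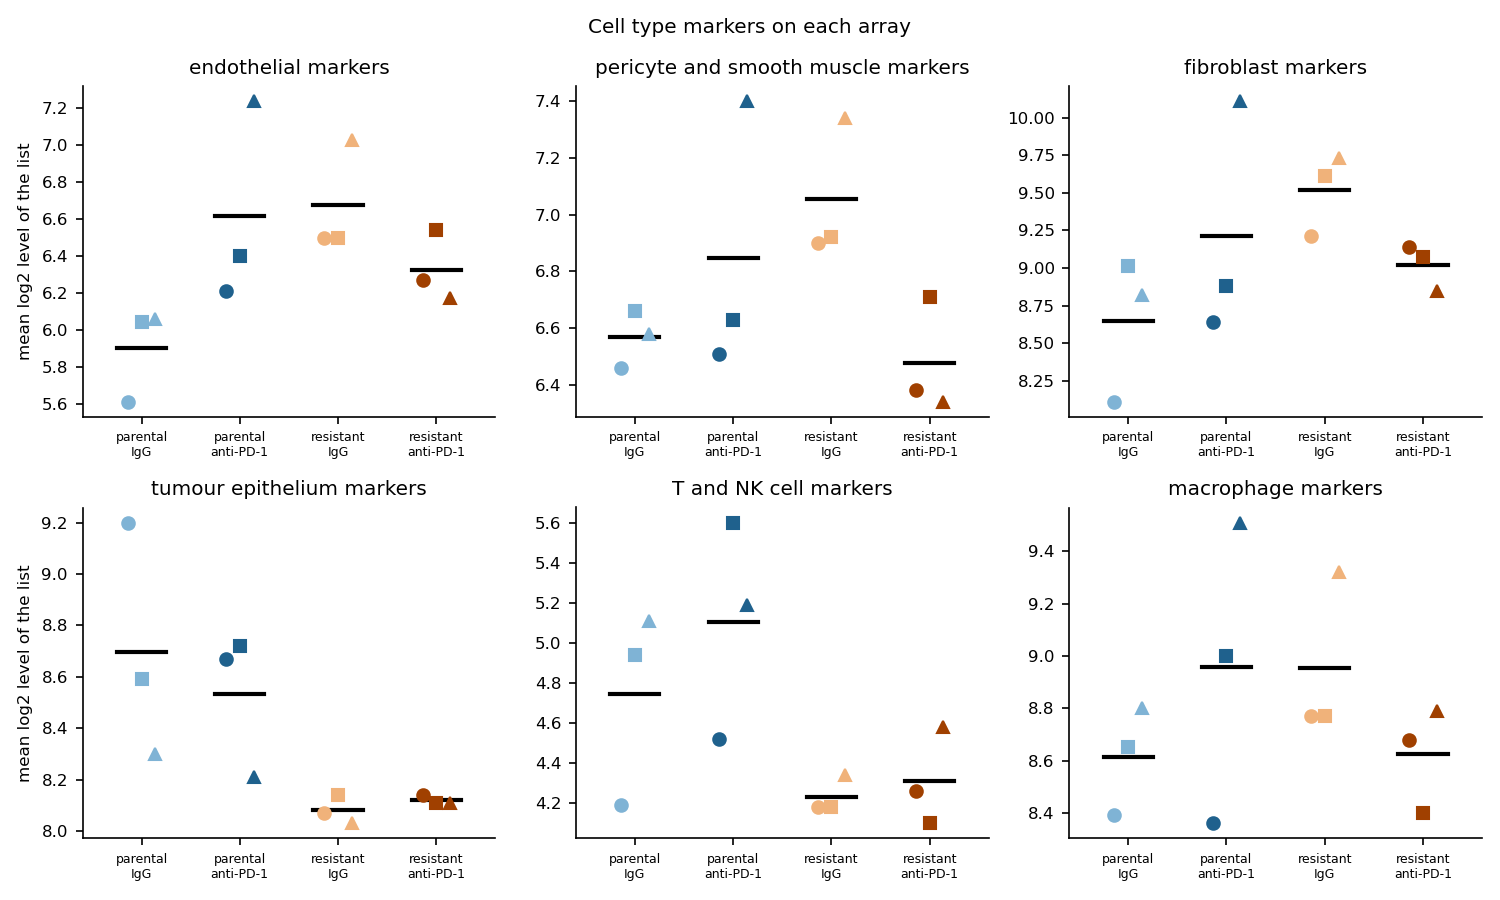
Mean log2 level of 6 marker lists on each array (vertical axes differ between panels) for the 4 groups; circles, squares and triangles are replicates 1, 2 and 3 and the bar is the group mean. Endothelial markers were lowest in parental tumours with IgG (5.61 to 6.06), and replicate 3 of the parental anti-PD-1 group was the highest array for endothelial, pericyte and fibroblast markers.

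Among all other genes, those whose levels followed Id3 most closely over the 12 arrays were Cntln (Pearson r = 0.979), Armcx1 (0.972), Cdh13 (0.969), Peli2 (0.967) and, at 0.966 each, Eif1b, Sap30, Map2k3os and Spin4. The arrays fall into the 2 lines, so these values describe a shared line difference. Among the members, r with Id3 was 0.845 for Id1, 0.833 for Id4, 0.76 for Smad6 and -0.802 for Bmp4. After the group means were removed, the closest genes were Mpo (0.969), Layn (0.965), Meox1 and Sod3 (0.959 each) and Scg2 (0.954). Over these 12 deviations, which share the array parental anti-PD-1 replicate 3 as an extreme, the members nearest to Id3 were Bmp2 (0.79) and Id4 (0.745), while Id1 was at -0.122.

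The neighbours of Id3 on chromosome 4 did not share the size of its line difference. The 5 measured genes on each side had differences between -0.01 and 0.59 under IgG (median 0.14) and between -0.22 and 0.61 under anti-PD-1 (median 0.10), against 2.20 and 1.50 for Id3. Pithd1, Eloa and Rpl11, which lie next to Id3 on one side, were called higher in both arms (0.53, 0.44 and 0.32 under IgG, 0.53, 0.40 and 0.61 under anti-PD-1, with adjusted p in limma of 0.013 or below). On the other side E2f2 was at 0.07 and -0.22 and Tcea3 at 0.59 and -0.21, neither called, and Hnrnpr was called under anti-PD-1 (0.37, adjusted p = 0.0134). Of the 10 neighbours, 3 were called under IgG and 4 under anti-PD-1, beside 16.2% and 33.5% of all genes. The 938 other tested genes of the chromosome had medians of 0.15 and 0.14.

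**Figure D5:**
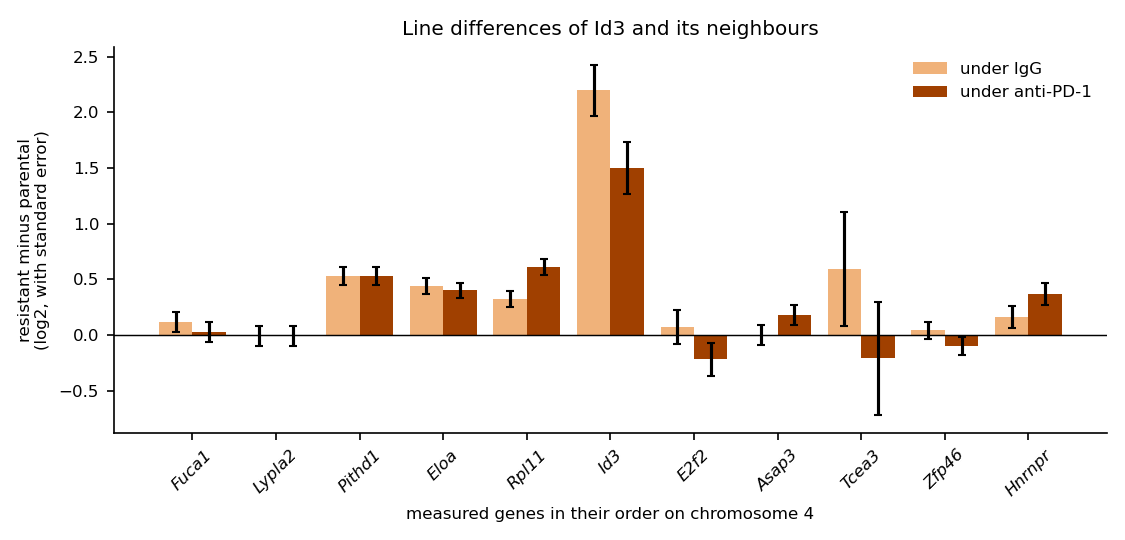
Resistant minus parental difference (log2, with standard error) of Id3 and the 5 measured genes on each side of it, in their order on chromosome 4, under IgG (light bars) and anti-PD-1 (dark bars). Id3 stands at 2.20 and 1.50, and its 10 neighbours lie between -0.22 and 0.61.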

How the data were processed

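Biotin-labelled RNA of whole tumours was hybridized to Affymetrix mouse genome arrays, per the labels' protocols. For each probe set and array the authors deposited 1 log2 level. That its values are log2 and already normalized was inferred from their range and from array medians between 4.75 and 4.89. The methods of background correction, normalization and summarization were not given in the sources used here. Of 45101 probe sets, 64 were controls, 932 carried several genes and 9160 none, and these were set aside. The 34945 with a single gene stayed, 34741 of them named by gene number. Each gene was represented by its probe set of highest mean. Genes above the 25th percentile of all values (3.32) on at least 3 arrays were kept, which left 15493 genes of 18193 and 28634 probe sets.

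Group means over the 12 arrays were fitted and compared with limma 3.58.1 (R 4.3.3; residual degrees of freedom 8, prior 2.98), two-sided, with Benjamini-Hochberg adjustment over all genes and a call at an adjusted p below 0.05. Probe sets were fitted in the same way, each as its own row. Tables and figures were made with Python 3.11.15 and matplotlib 3.10.9, and the fit was tested on simulated data. Alternatives were the mean of all probe sets, other filters, median centring, quantile normalization, array weights, only the groups compared, the replicate number as a block, leaving out each array, and leaving out both arrays that stood apart.

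The members and lists were chosen with earlier results of these data known. From each pathway list the text names the called genes where there were 6 or fewer, or up to 4 with the smallest p, besides all members, the 8 genes nearest to Id3 over arrays, the 5 nearest over deviations (predicted genes passed over) and 5 neighbours on each side. The replicate numbers come from the sample titles. Same-numbered arrays of the 2 resistant groups deviated together (correlations of 0.11, 0.12 and 0.17 over genes). With the number as a block 0 members were called there, as without it. In each of the other 3 comparisons of 2 groups, 1 pair of same-numbered arrays was below 0.1, so these were not taken as paired. Between antibodies in parental tumours the pairs had 0.64, 0.06 and 0.44, the first and last above those of the resistant groups. Between the lines they had 0.17, -0.21 and 0.25 under IgG and 0.27, 0.09 and 0.22 under anti-PD-1. With the number as a block, Bmp2 kept its call in parental tumours (0.77, limma, adjusted p = 0.0364). Parental IgG and resistant anti-PD-1 arrays, which were not compared, had 0.41, 0.18 and 0.44.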

Additional observations from a re-analysis of the deposited data

Results flagged for a closer look

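For 2 of the 80 pathway genes the antibody groups were apart in opposite directions in the 2 lines. The share of all genes with this pattern was not counted, so the number is a description only. Eng, the endothelial coreceptor gene endoglin, was at 6.68, 6.82 and 6.90 with IgG and 6.93, 7.19 and 7.71 with anti-PD-1 in parental tumours, and at 7.24, 7.22 and 7.57 with IgG and 7.03, 7.16 and 6.85 with anti-PD-1 in resistant tumours. The interaction was -0.81 (limma, adjusted p = 0.18) and did not pass. Bmpr1a, a type I BMP receptor gene, was at 8.76, 8.71 and 8.68 with IgG and 8.60, 8.51 and 8.34 with anti-PD-1 in parental tumours, and at 8.74, 8.72 and 8.77 with IgG and 8.92, 8.85 and 8.82 with anti-PD-1 in resistant tumours. Its interaction was 0.35 (limma, adjusted p = 0.18) and did not pass either.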

How the results depend on the processing

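The line differences of Id3 under IgG stayed between 2.15 and 2.29 in 21 alternatives. Under anti-PD-1 the Id3 difference was 1.83 without both arrays that stood apart and 1.30 to 1.83 with 1 array left out. The 1 member called between antibodies in parental tumours became 0 when only the groups compared were fitted and 0 without both arrays, and the count was 0 to 1 with 1 array left out, as it was for the interaction. Pathway genes called there numbered 2 with the stricter filter, 2 with array weights, 0 with only the groups compared, 0 without both arrays and 0 to 4 with 1 array left out, against 1. Between the lines under IgG they numbered 15 with the mean of all probe sets, 15 with median centring, 24 with array weights and 4 to 14 with 1 array left out, against 8, and under anti-PD-1 10 with only the groups compared, against 16. The cause of these moves was not tested. With the replicate number as a block, 4 pathway genes were called between antibodies in parental tumours instead of 1, and no call of a member changed. Same-numbered arrays had correlations of -0.21 to 0.64 over 18 pairs, with 14 above 0.1. Median centring moved the higher and lower genes of all genes tested from 1384 and 1133 to 2102 and 887 under IgG, and from 3343 and 1843 to 5051 and 1300 under anti-PD-1, at medians of 0.123 and 0.18.

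Some antibody differences, none of them called, changed sign. In parental tumours Id1 was at -0.043 with array weights and -0.12 to 0.13 with 1 array left out, Bmp4 at -0.31 to 0.10, and Bambi at -0.005 and Grem1 at -0.11 without both arrays. In resistant tumours Id4 was at -0.12 with the mean of all probe sets and -0.06 to 0.11 with 1 array left out, Id1 at -0.025 to 0.18, Smad7 at -0.017 to 0.15 and Bmp4 at -0.21 to 0.087. In the interaction Id1 was at -0.016 with quantile normalization and -0.065 to 0.20 with 1 array left out, Smad6 at -0.063 to 0.30, and Bmp4 at 0.047 with median centring, 0.19 with array weights, 0.37 without both arrays and -0.17 to 0.25 with 1 left out. The 3 arrays per group limit the precision of all these values.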
